A study of Homo sapiens with 6 samples.

Results

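The chemokine receptors described here are 9 genes measured in U266, an established line of human myeloma cells: CCR7, CXCR5, CXCR4, CCR6, CCR4, CCR10, CCR1, CCR2 and CXCR3. They were taken by symbol from the 57820 gene rows of each library's table, and all 9 symbols matched 1 row. The set was chosen from the same contrast that is described below, because CCR7 and CCR4 stood near the detection floor in control libraries and higher in MYC libraries. Their differences between the groups are therefore given as a description, with no p-value. The compared groups were 3 MYC samples, in which U266 had been given MYC by an EF1A-C-MYC lentivirus, and 3 control samples of the same line. Both were grown in RPMI-1640 with 10% serum and antibiotics and sequenced as poly-A RNA. The labels leave unsaid whether controls received an empty vector, whether MYC cells are a clone or a pool, and whether replicates are separate cultures, so p-values measure the spread between these samples, which may be technical.

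Chemokine receptors are membrane proteins that couple mainly to inhibitory G proteins and steer cell movement along gradients of small secreted ligands. CXCR4 with its ligand CXCL12 retains plasma cells and myeloma cells in bone marrow. CCR7 guides T cells, B cells and dendritic cells to lymphoid tissue, CXCR5 brings B cells to follicles, CCR4 and CCR10 serve homing to skin and mucosa, CCR6 binds CCL20, and CCR1, CCR2 and CXCR3 are best known for recruitment to inflamed tissue. Plasma cell differentiation is known to lower CXCR5 and CCR7 and to keep CXCR4.

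Start-site sequences are shown for the receptor with the largest relative difference, CCR4, and for the most abundant pair, CCR2 and CXCR4. RefSeq (GRCh38.p14) gave 11 promoter windows for 7 of the 9 genes, each 250 bases before to 50 bases after a start. CCR7 and CCR10 had none. Capitals mark the general E-box CANNTG, the TATA box TATAAA and the GC box GGGCGG on either strand, and neighbouring hits can overlap.
CCR4, chr3:32951394-32951693, plus strand: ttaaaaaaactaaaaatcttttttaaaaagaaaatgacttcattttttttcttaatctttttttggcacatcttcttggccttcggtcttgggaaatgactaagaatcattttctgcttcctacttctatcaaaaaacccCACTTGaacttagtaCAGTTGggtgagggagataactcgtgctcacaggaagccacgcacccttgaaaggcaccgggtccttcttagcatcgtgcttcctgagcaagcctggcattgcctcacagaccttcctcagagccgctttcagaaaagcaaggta
CCR2, chr3:46353861-46354160, plus strand: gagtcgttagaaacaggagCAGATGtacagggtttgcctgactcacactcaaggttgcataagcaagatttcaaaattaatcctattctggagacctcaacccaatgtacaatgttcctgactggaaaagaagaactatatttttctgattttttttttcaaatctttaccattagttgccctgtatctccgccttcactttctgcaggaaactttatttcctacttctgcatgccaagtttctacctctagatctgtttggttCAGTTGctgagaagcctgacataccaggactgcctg
CXCR4, chr2:136118100-136118399, minus strand, the most upstream of its 3 windows: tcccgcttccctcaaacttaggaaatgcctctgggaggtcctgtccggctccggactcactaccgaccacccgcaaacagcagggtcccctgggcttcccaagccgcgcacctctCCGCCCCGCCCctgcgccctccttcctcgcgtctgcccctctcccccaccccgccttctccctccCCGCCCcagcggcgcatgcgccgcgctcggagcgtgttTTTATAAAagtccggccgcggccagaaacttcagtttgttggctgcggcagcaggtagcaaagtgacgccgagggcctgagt
The CCR4 window had 41.7% GC and the CCR2 window 40.7%, against a median of 58.7% over 35116 promoters, and each held 2 CANNTG hits. The CXCR4 window had 66.7% GC, with 3 GGGCGG hits and 2 TATAAA hits, these 2 on opposite strands of an overlapping stretch. CANNTG occurred in 68.7%, TATAAA in 11.5% and GGGCGG in 44.95% of all promoters. The E-box that MYC and MAX are known to prefer, CACGTG, occurred in 7.26% of all promoters and in none of the 11 receptor windows. A motif match is only a match of letters.

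Libraries held 27139978 to 158667309 summed expected counts, so a floor of 3 counts corresponded to between 0.0193 and 0.113 CPM (counts scaled to library size with TMM factors). MYC itself, the introduced gene, stood at 64.7, 69.2 and 62.6 TPM (transcript abundance scaled for length and library size) in MYC libraries and 2.67, 2.62 and 2.93 TPM in control libraries. Of 17679 genes tested, 28.8% were called higher and 32.1% lower in MYC (edgeR quasi-likelihood, Benjamini-Hochberg adjusted p under 0.05). Fold changes followed transcript GC content, with a median of 0.23 (log2) at 40 to 45% GC and -1.13 above 60%. Each receptor's value is therefore also given with an offset that removes each library's trend on GC content. The plasma cell markers SDC1, TNFRSF17, IRF4, PRDM1, XBP1, SLAMF7, CD38 and MZB1 summed to 1387 to 1432 TPM in MYC and 2001 to 2218 TPM in control libraries, so markers of the labelled cell type were present in both groups. Of these 8 markers 1 was called higher and 5 lower in MYC, and 2 higher and 6 lower with the GC offset.

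Transcript levels of the 9 receptors covered a wide range, and their order differed between the groups in the middle of the range. In MYC libraries it ran CXCR4, CCR2, CCR1, CCR7, CCR4, CCR10, CXCR5, CXCR3, CCR6. In control libraries it ran CXCR4, CCR2, CCR1, CCR10, CXCR5, CCR7, CXCR3, CCR4, CCR6. Neighbours whose library values overlapped were CXCR5 with CXCR3 and CXCR3 with CCR6 in MYC libraries, and CXCR5 with CCR7, CCR7 with CXCR3 and CCR4 with CCR6 in control libraries. CXCR4 and CCR2 together made up 96.2 to 96.3% of the summed TPM of the 9 genes in MYC libraries and 96.6 to 96.9% in control libraries.

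**Figure D1:**
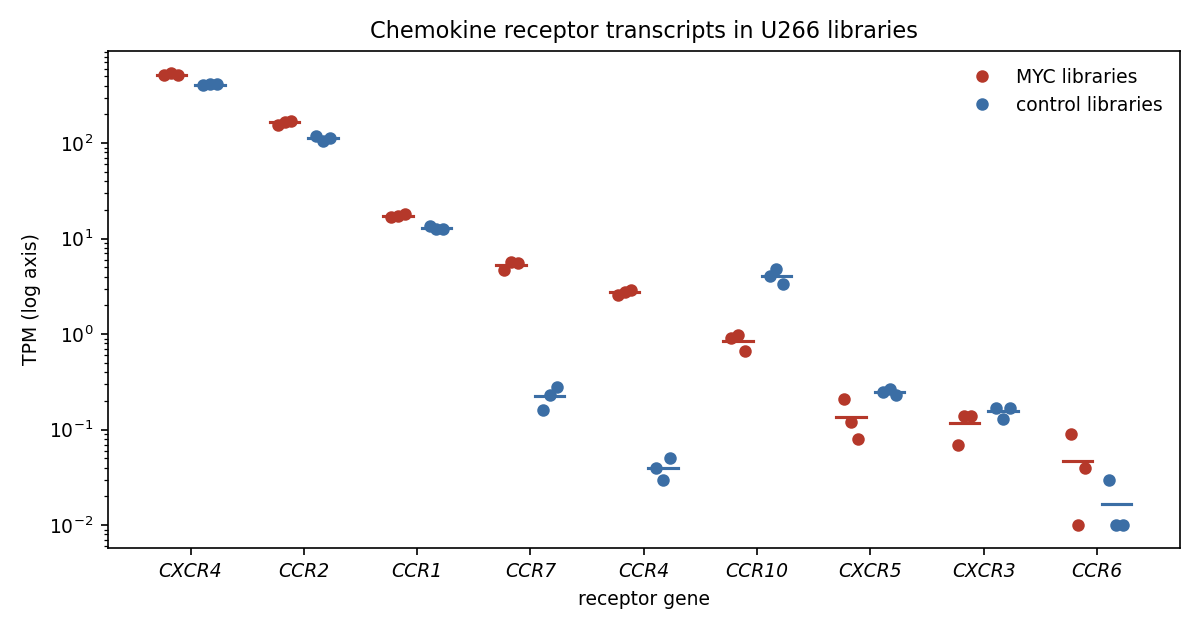
TPM (log axis) of the 9 receptor genes in each library, with 3 MYC libraries on the left and 3 control libraries on the right of each gene; horizontal bars are group means. CCR7 and CCR4 average 5.32 and 2.73 TPM in MYC libraries, against 0.223 and 0.04 TPM in control libraries, while CCR10 lies lower in MYC.

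Of the 9 receptors, 8 passed the expression filter, and 5 of these were called higher and 2 lower in MYC. Over all genes tested, 60.8% were called in one direction or the other. The library values of the groups did not overlap for 7 of the 8 tested receptors, and for 67.1% of all genes tested. They overlapped for the untested CCR6. With the GC offset 4 receptors were called higher and 1 lower, and 58.6% of all genes were called. Because the receptors were picked from this contrast, nothing is read from these counts. The median log2 fold change of the 8 was 0.42, and 0.28 with the GC offset, beside -0.02 and -0.06 over all genes.

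CCR7 (ENSG00000126353.3), the receptor for CCL19 and CCL21, had 200, 1273 and 394 expected counts in the MYC libraries and 13, 23 and 47 in the control libraries. Scaled for length and depth, these were 4.70, 5.73 and 5.54 TPM in MYC and 0.16, 0.23 and 0.28 TPM in control. Every MYC library lay above every control, and all control counts were above the floor, so CCR7 was low but detected there. The log2 fold change was 4.63 ± 0.15 (SE), a 24.8-fold higher level in MYC, and 29.03-fold with the GC offset. Larger relative increases were found for 0.464% of genes tested.

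CCR4 (ENSG00000183813.6), the receptor for CCL17 and CCL22, had 160, 989 and 341 expected counts in MYC libraries and 5, 6 and 16 in control libraries. The TPM values were 2.55, 2.75 and 2.90 in MYC and 0.04, 0.03 and 0.05 in control. CCR4 passed the expression filter, which asks for about 0.1504 CPM in 3 libraries, only through the MYC group. The MYC libraries were close to one another despite their 5.85-fold range of depth, whereas the control values rested on few reads. The log2 fold change was 5.93 ± 0.16 (SE), or 60.9-fold higher in MYC, and 51.3-fold with the GC offset. With control replicate 3 left out it was 6.20 on the log2 scale, the highest value over the settings tried. CCR7 had 1.84 to 2.08 times the TPM of CCR4 in MYC libraries and 4 to 7.67 times in control libraries. Beside the abundant receptors both stayed low: CXCR4 was 92.8 to 108.8 times the TPM of CCR7 in MYC libraries, against 1478 to 2523 times in control libraries. Among the 3001 tested genes with a control mean under 0.5 CPM, a group that holds both, 26.1% were called higher, beside 28.8% of all genes. Of the 3001, 121 were called higher by more than 16-fold. Genes this low in control can pass the filter through the MYC group alone, as CCR4 did, so the filter favours large increases here.

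CCR7, CCR4 and other receptors of this set are also expressed by T cells, so T and NK cell markers were looked at. Most of those tested were higher in MYC. Of 9 matched markers 8 were tested, of which 6 were higher and 2, CD2 and CD8A, lower (CD8A not with the GC offset). Over all genes tested, 28.8% were called higher and 32.1% lower. The median log2 fold change of the tested markers was 1.17, and 1.33 with the GC offset, beside -0.02 and -0.06 over all genes. The list summed to 15.99 to 16.95 TPM in MYC and 9.68 to 12.3 TPM in control libraries. CD4 and KLRD1, both higher, passed the expression filter only through the MYC libraries. None of the 9 was at 0 in all libraries of a group. CD3E averaged 8.99 ± 0.691 TPM in MYC and 5.46 ± 0.824 TPM in control libraries (SD, n = 3 each), and CD4 had 6, 28 and 11 expected counts in MYC and 3, 5 and 9 in control. Dendritic and myeloid markers summed to 19.0 to 20.9 TPM in MYC and 16.1 to 18.9 TPM in control, nearly all from LAMP3, and 9 of the 10 averaged under 1 TPM in both groups. B cell markers summed to 15.4 to 17.3 TPM in MYC and 16.2 to 16.6 TPM in control, with MS4A1 at 0 to 6 expected counts per library. The stromal and endothelial markers that matched summed to 0.95 to 1.14 TPM in MYC and 1.83 to 2.43 TPM in control. The part of other cells in the receptor values was not tested. In bulk RNA, fewer cells of a type and less RNA per cell cannot be told apart.

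CXCR4 (ENSG00000121966.6), the CXCL12 receptor, was the most abundant of the 9. It stood at 511.5, 537.7 and 513.9 TPM in MYC libraries and 403.6, 411.8 and 413.7 TPM in control libraries, with no overlap. The level was 1.30-fold higher in MYC (log2 fold change 0.38 ± 0.07, SE), and 1.10-fold with the GC offset (0.14 ± 0.06), so the difference shrank with the offset.

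CCR2 (ENSG00000121807.5), the receptor for CCL2 and related chemokines on monocytes, came after it, at 156.6, 166.4 and 172.5 TPM in MYC libraries and 120.1, 106.0 and 112.8 TPM in control libraries. CCR1 (ENSG00000163823.3), which binds CCL3, CCL5 and other inflammatory chemokines, came next, at 16.9, 17.4 and 18.0 TPM in MYC and 13.6, 12.6 and 12.8 TPM in control. Both lay above the control range in every MYC library. CCR2 was 1.499-fold and CCR1 1.38-fold higher in MYC, and with the GC offset 1.25-fold and 1.17-fold. All 3 of these abundant receptors have transcripts of 43.6 to 46.1% GC, a range in which the median gene was also slightly higher in MYC.

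CCR10 (ENSG00000184451.5), the receptor for CCL27 and CCL28 that marks plasma cells of mucosa and skin, was the one receptor of more than 1 TPM that was lower in MYC. It stood at 0.91, 0.98 and 0.66 TPM in MYC libraries and 4.07, 4.82 and 3.36 TPM in control libraries, with no overlap. The log2 fold change was -2.20 ± 0.21 (SE), 4.61-fold lower, but 1.499-fold lower with the GC offset, at -0.58 ± 0.14. CCR10 transcripts had the highest GC content of the 9, 66.3%. PLEKHH3, the next gene on one side of CCR10, was 4.73-fold lower in MYC (log2 fold change -2.24, and -0.57 with the GC offset), and CNTNAP1 on the other side was 1.78-fold lower. Of the 50-base windows of the CCR10 transcript, 33.0% also occur, on either strand, in CNTNAP1 or an antisense transcript, and without strand these reads were not told apart.

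The remaining receptors stood at 0.27 TPM or less in every library. CXCR5 (ENSG00000160683.4), the CXCL13 receptor, had 0.21, 0.12 and 0.08 TPM in MYC and 0.25, 0.27 and 0.23 TPM in control libraries. The log2 fold change was -0.93 ± 0.29 (SE), and shrank to -0.43 ± 0.25 with the GC offset. CXCR5 is uncertain: 88.5% of its transcript windows are shared with BCL9L on the opposite strand, and BCL9L had a log2 fold change of -1.08, and 0.16 with the offset. CXCR3 (ENSG00000186810.7), the receptor for CXCL9, CXCL10 and CXCL11, had 2, 26 and 8 expected counts in MYC and 10, 11 and 24 in control libraries. The groups overlapped, and the log2 fold change of -0.19 ± 0.32 (SE) turned to 0.77 ± 0.35 with the GC offset, so no direction is given. CCR6 (ENSG00000112486.10), the CCL20 receptor, had 5.57, 3.58 and 4.54 expected counts in MYC and 4.35, 2.69 and 2.26 in control libraries. It did not pass the expression filter and no fold is given. Of its transcript windows 74.6% are shared with an overlapping transcript, so those reads may not be its own.

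**Figure D2:**
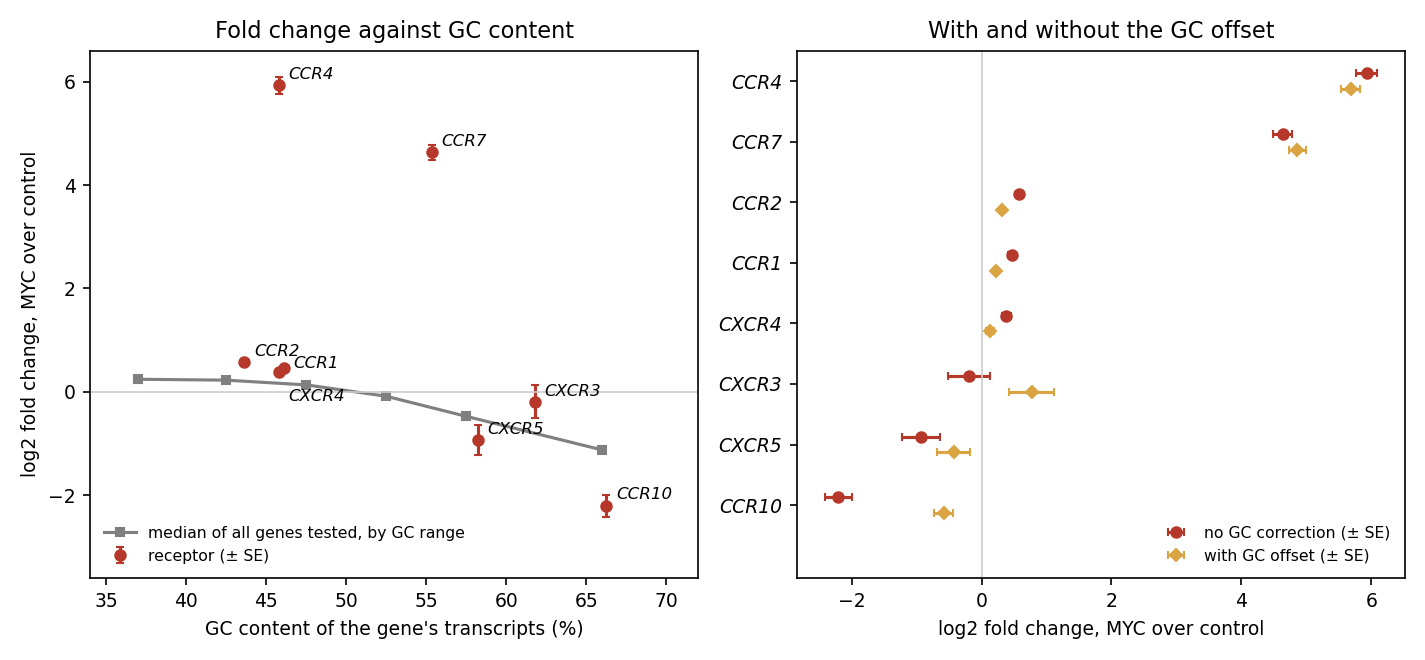
Left, log2 fold change of MYC over control (± SE) of the 8 tested receptors against the GC content of their transcripts, with the median of all genes tested by GC range. Right, the same fold changes without GC correction and with the GC offset: CCR4 and CCR7 stay above 4 on the log2 scale both ways, whereas CCR10 goes to -0.58 with the offset.

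The genes whose profiles over the 6 libraries were most like that of CCR7 were, by Euclidean distance of log2 CPM centred on the control mean and among 11407 protein-coding genes, MYC (0.27), TNS4 (0.36), PLEK (0.56), WSCD2 (0.66) and TLR7 (0.66). For CCR4 they were ARHGEF6 (0.45), PIK3AP1 (0.46), CDH17 (0.62), CEACAM1 (0.66) and RGS9 (0.72). The group difference makes up most of each profile, so these are genes with a like increase. TNS4, which encodes the adhesion protein tensin 4, is also the next protein-coding gene to CCR7 on chromosome 17 in RefSeq. TNS4 averaged 3.53 ± 0.223 TPM in MYC libraries and 0.16 ± 0.0624 TPM in control libraries (SD, n = 3 each), 26.1-fold higher. Since TNS4 was picked for its likeness to CCR7, this is a description with no test. On the other side of CCR7, SMARCE1, a chromatin remodelling subunit, was 1.22-fold higher (adjusted p = 0.00165, edgeR), and 0.02 on the log2 scale with the GC offset. TOP2A, beyond TNS4 and the untested IGFBP4, was 1.89-fold higher. No neighbour of CCR4 was alike: of the 3 protein-coding genes on each side, GLB1 was called, 1.17-fold lower (adjusted p = 0.0141, edgeR), and the log2 fold changes of all 6 ran from -0.22 to 0.24. Neighbours were looked at after the profile of TNS4 was seen.

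CCR1 and CCR2 lie in a cluster of chemokine receptor genes on chromosome 3. The log2 fold changes of the genes given here, in chromosome order, were -1.30 for CCR9, -0.20 for FYCO1, -0.35 for XCR1, 0.47 for CCR1, 0.20 for CCR3, 0.58 for CCR2 and 2.58 for CCRL2, and CXCR6 was not tested. Of the genes outside the chosen set, FYCO1 was called lower and CCRL2 higher. XCR1 (adjusted p = 0.295, edgeR) and CCR3 (adjusted p = 0.116, edgeR) were not called. CCR9 passed the expression filter only through the control group, in which it was high, so nothing is read from its call.

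**Figure D3:**
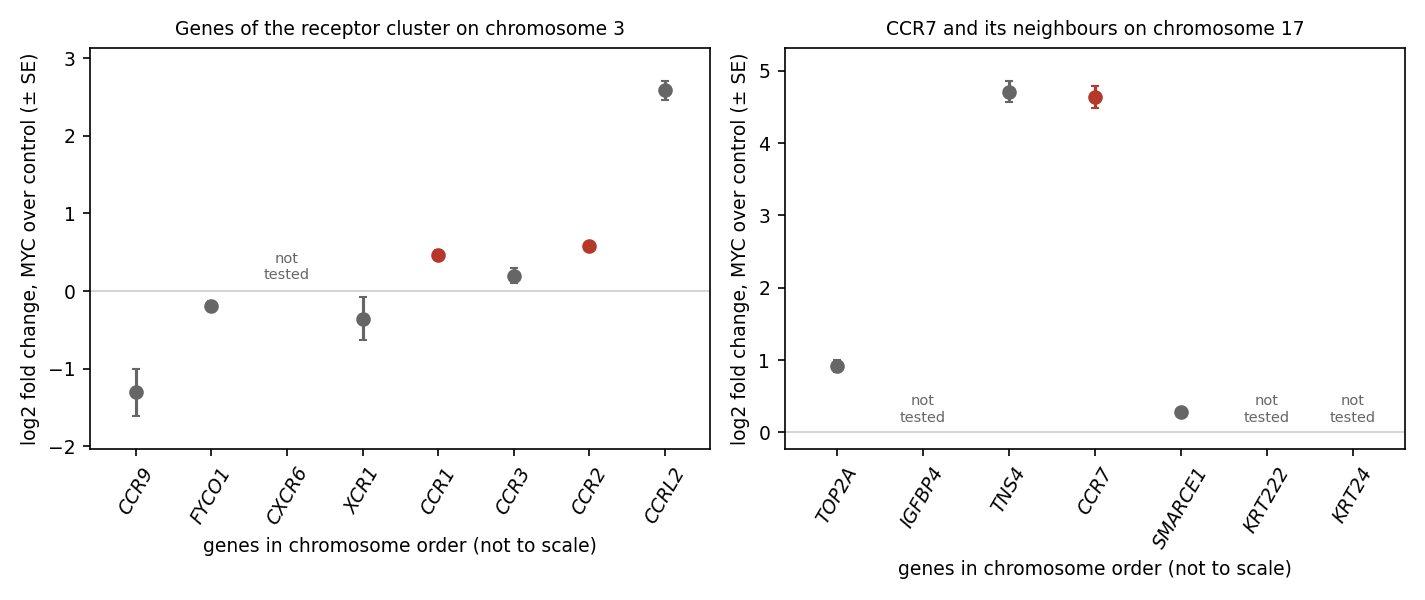
Log2 fold change of MYC over control (± SE) in chromosome order, for genes of the receptor cluster on chromosome 3 (left) and for CCR7 with 3 protein-coding genes on each side (right); receptors of the described set are red. CCRL2 stands at 2.58 at one end of the cluster, and TNS4 stands at 4.71 next to CCR7 at 4.63.

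Among 14 further conventional and atypical chemokine receptors 8 were tested, of which 4 were called higher, 1 lower and 3 not called, beside 60.8% of all genes called. Their median log2 fold change was 0.50, and 0.24 with the GC offset, beside -0.02 and -0.06 over all genes. With the offset 4 were called higher and 2 lower, beside 25.7% and 32.9% of all genes. ACKR3 and CCR9 passed the expression filter only through the group in which they were high, so they had to differ and are given with no p. ACKR3, an atypical receptor that takes up CXCL12, was near the floor in control libraries: it had 36, 286 and 52 expected counts in MYC and 1, 3 and 5 in control libraries, which straddle the floor. CCRL2, an atypical receptor that binds chemerin, rose 5.997-fold to 4.06 ± 0.174 TPM, against 0.743 ± 0.11 TPM in control (adjusted p = 1.50e-06, edgeR). CX3CR1, the fractalkine receptor, rose 2.05-fold to 0.39 TPM, against 0.183 TPM in control. CCR9, the gut homing receptor for CCL25, averaged 0.0533 TPM in MYC and 0.143 TPM in control libraries, and its call ended without MYC replicate 2.

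Most ligands of these receptors lay at or near the floor. Of 43 chemokine ligands 35 matched a row, 12 of these had no count in any library, and 6 passed the filter, of which 3 were called higher, 1 lower and 2, CCL1 and XCL1, not called, beside 60.8% of all genes called. Of the 4 called, 3 (CCL20, CXCL17 and CCL27) passed the filter only through the group in which they were high and are given with no p. The ligands of CCR7, CCL19 and CCL21, had 0 counts in all 6 libraries, as did CCL17, one of the ligands of CCR4. CCL22, the other ligand of CCR4, had 2, 11 and 5 expected counts in MYC and 1, 2 and 0 in control libraries. CXCL12, the ligand of CXCR4, had 0, 16 and 9 in MYC and 0, 1 and 0 in control. CXCL10, a ligand of CXCR3, had 3, 24 and 15 in MYC and 0 in every control library. In MYC replicates 2 and 3 the counts of CCL22, CXCL12 and CXCL10 lay above the floor of 3 counts. Those in MYC replicate 1 and in the control libraries lay at or below it. None of CCL22, CXCL12 and CXCL10 passed the filter.

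CCL20, the ligand of CCR6, had the highest fold change of the 6 tested ligands. It had 4.78, 5.49 and 6.35 TPM in MYC libraries and 0.28, 0.33 and 0.34 TPM in control libraries, 16.9-fold higher in MYC, and 13.7-fold with the GC offset. CXCL16, a membrane-bound ligand of CXCR6, rose 3.13-fold to 2.98 ± 0.734 TPM, against 1.10 ± 0.26 TPM in control. CXCL17, a mucosal chemokine, averaged 0.72 TPM in MYC and 0.267 TPM in control libraries. CCL27, the skin ligand of CCR10, averaged 0.217 TPM in MYC and 0.797 TPM in control libraries. Its log2 fold change was -1.65, and -2.63 without MYC replicate 2. CCL27 expected counts were not whole numbers, so some of its reads were divided between genes in the estimate.

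Genes that carry and limit the receptor signal went both ways: of 38 tested, 14 rose, 15 fell and 9 were not called, with a median log2 fold change of -0.02. Of these, 3 called genes, RGS13, ARRB1 and GNG2, passed the filter only through the MYC group. The share called is to be read beside 28.8% higher and 32.1% lower over all genes. With the GC offset 17 rose and 13 fell, beside 25.7% higher and 32.9% lower over all genes. Among the regulators of G protein signalling, which shorten the signal of the G protein, RGS1 rose 5.82-fold to 55.6 ± 6.76 TPM, against 9.87 ± 0.662 TPM in control (adjusted p = 2.61e-07, edgeR). RGS13 averaged 1.61 TPM in MYC and 0.08 TPM in control libraries. RGS3 fell 6.62-fold to 1.93 ± 0.265 TPM, against 8.33 ± 0.184 TPM in control. The fold of RGS3 is from counts, whereas TPM divides by an effective length that averaged 1250 bases in MYC and 1992 bases in control libraries, and with an effective length offset its log2 fold change was -2.11 in place of -2.73. RGS14 was 3.43-fold lower, a difference of 1.496-fold once the GC offset was applied.

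ARRB1, a beta-arrestin that ends G protein coupling and drives receptor uptake, averaged 1.01 TPM in MYC and 0.07 TPM in control libraries. PIK3CG, the phosphoinositide kinase activated by G protein beta-gamma subunits, rose 5.78-fold to 3.35 ± 0.172 TPM, against 0.583 ± 0.0577 TPM in control. GRK2, a kinase that desensitizes receptors, and the small GTPase RAC2 turned direction with the GC offset, with log2 fold changes of -0.73 and -0.66 without it and 0.25 and 0.23 with it, so no direction is given. GRK2 and RAC2 were singled out after their values were seen.

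Of 19 other receptors that guide leukocyte migration 9 were tested, of which 3 rose, 5 fell and 1 was not called, with a median log2 fold change of -0.24, beside 28.8% higher and 32.1% lower over all genes. With the GC offset 4 rose and 2 fell, beside 25.7% and 32.9% of all genes, and the median was 0.26. S1PR2, a sphingosine-1-phosphate receptor that holds B cells in germinal centres, fell 3.68-fold to 16.02 ± 5.10 TPM, against 59.6 ± 2.89 TPM in control (adjusted p = 0.000129, edgeR), and fell 2.95-fold with the offset. S1PR1, the sphingosine-1-phosphate receptor that promotes exit from lymphoid organs, rose 1.26-fold to 13.9 TPM, against 11.5 TPM in control. GPR18 rose 2.50-fold and PTAFR, the receptor for platelet-activating factor, 1.48-fold. GPR35 was 4.25-fold lower, and 2.05-fold lower once the offset was applied. GPR132 fell 1.66-fold without the offset, and its call ended with it (log2 fold change -0.14, adjusted p = 0.0899, edgeR).

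**Figure D4:**
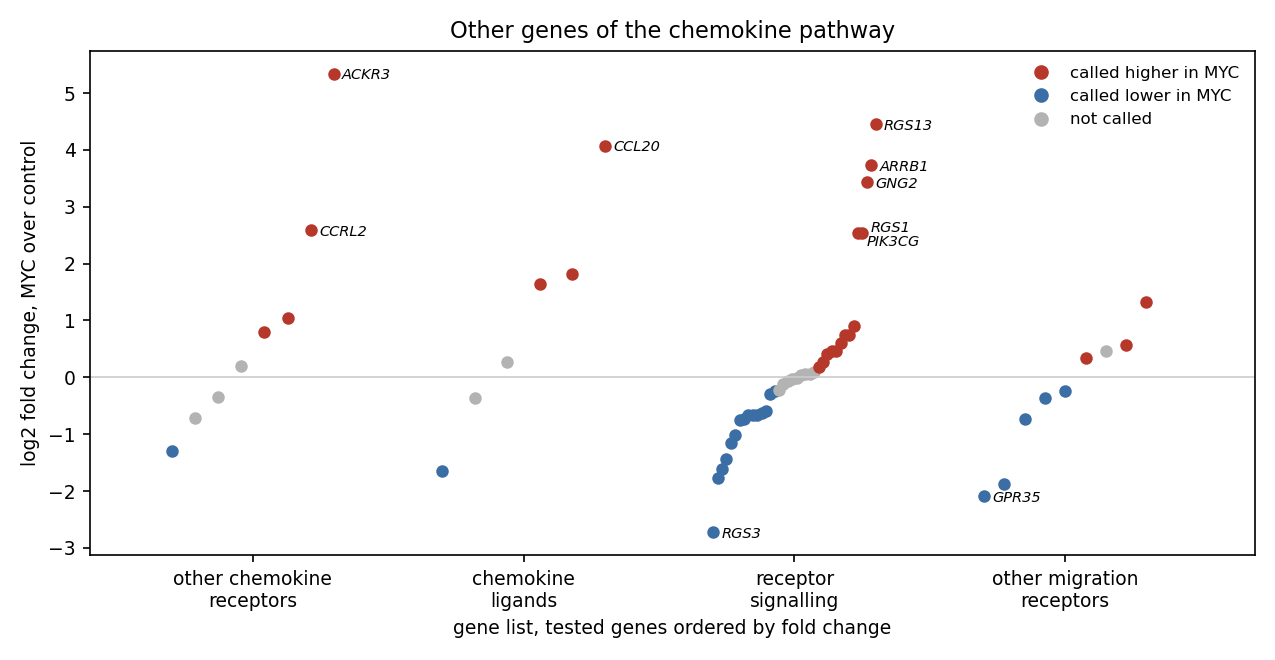
Log2 fold change of MYC over control for the tested genes of 4 lists, ordered within each list; red genes were called higher in MYC, blue lower and grey not called. ACKR3 at 5.34, RGS13 at 4.45 and CCL20 at 4.08 stand highest, and RGS3 at -2.73 lowest. ACKR3, RGS13 and CCL20 passed the expression filter only through the MYC group, so the filter favours their place.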

How the data were processed

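RNA was measured in 3 MYC and 3 control samples of U266. Cutadapt, TopHat2 and build GRCh37 are named per the submitters' processing notes; the annotation and versions used are not given in the sources. Per the labels' protocols, the libraries were poly-A enriched, and the kit named there does not mark strand. Per the file headers, the authors deposited an RSEM expected count (estimated, so ambiguous reads are split), a TPM and an effective length in bases, another value kept for an alternative, per gene and library.

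Symbols were found for 51996 of 57820 identifiers. The 9 receptors and all lists were chosen with earlier results of these data known. After rounding, the test was edgeR's (4.0.16, under R 4.3.3): default filter, TMM factors, group only, quasi-likelihood F test, adjusted over 17679 genes and called at 0.05. SE is the log2 fold change divided by the root of F. For the GC offset, log2 CPM (prior count 2) was smoothed on transcript GC content by loess (span 0.4) within each library and the trend removed (GENCODE 29, 97.3% of genes tested). Shared windows are 50-base stretches of the longest coding transcript. The fit was tested on simulated data. Library pairs within groups differed by more than counting error, with a chi-square of at least 8.46 per degree of freedom. Floors cover counting error only. Besides the 9 receptors and MYC, up to 6 called genes per list, by smallest adjusted p, were named, with the 5 genes most like CCR7 and CCR4. Alternatives were DESeq2 1.42.0, RLE factors, unscaled totals, limma-voom and limma-trend (limma 3.58.1), other filters, length and GC offsets, a replicate block and each library left out. One gene of the lists enters the counts and is not reported here by name.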

Additional observations from a re-analysis of the deposited data

How the results depend on the processing

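CCR7 and CCR4 were higher in MYC under all 18 alternatives, with log2 fold changes from 2.37 to 4.88 for CCR7 and from 1.84 to 6.20 for CCR4; the lowest come from log2(TPM + 1), which understates low genes. CCR10 ran from -2.41 to -0.58, CXCR4 from 0.13 to 0.43, CCR2 from 0.32 to 0.60 and CCR1 from 0.23 to 0.49. Without any one library the counts of called genes ran from 4184 to 5076 higher and 4925 to 5809 lower, against 5085 and 5671 with all 6. Other chemokine receptors called higher were 2 of 3 tested at a mean CPM of at least 1, against 4 of 8 with the default filter. Those called lower were 0 of 3 there, 0 of 8 on log2(TPM + 1), 2 of 8 with the GC offset, and 0 to 1 without one library. Ligands called higher were 9 of 23 tested with no expression filter, against 3 of 6 with the default filter. Those called lower were 0 of 3 at a mean CPM of at least 1 and 2 of 6 with the GC offset, with or without the replicate block. The filters change the number tested, so these counts are not like for like. Over all genes 5007 of 32620 were called higher with no filter, and 4238 higher and 4817 lower of 13373 at a mean CPM of at least 1. Other migration receptors called lower were 2 with the GC offset, with or without the block, and those called higher were 6 with both. Same-numbered samples did not deviate together (correlations of -0.05, 0.08 and 0.11), so the numbers were not taken as pairs; with the replicate block alone CCR7 was at 4.64 and CCR4 at 5.94 on the log2 scale, and 4649 genes were called higher and 5380 lower. The call for CCR9 also ended on log2(TPM + 1), and that for GPR132 with the GC offset and block (adjusted p = 0.0975, edgeR). Control counts of 5 to 16 limit CCR4, which was at 6.20 without control replicate 3, and the depth does not resolve CCR6 or CXCR3.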
